A study of Saccharomyces cerevisiae with 9 samples.

Results

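The genes described here encode the proteins of the cytosolic ribosome of budding yeast, Saccharomyces cerevisiae. They were chosen by name, as all genes on the arrays whose symbol is RPL or RPS followed by a digit, or one of the stalk genes RPP0, RPP1A, RPP1B, RPP2A and RPP2B. This gave 137 of 6256 genes, and each of the 137 carried the same symbol in the RefSeq annotation. Of these, 81 encode the large 60S subunit, 5 of them its stalk, and 56 encode the small 40S subunit. A pair of genes named A and B exists for 59 names (35 of the 60S and 24 of the 40S subunit), and 19 genes stand alone. Most pairs encode the same or nearly the same protein, but those of RPP1 and RPP2 encode related, distinct stalk proteins.

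The 60S subunit joins amino acids into protein and the 40S subunit reads the messenger RNA. Their proteins are made in nearly equal amounts, and in growing yeast these genes are among the most strongly transcribed, under Rap1, Fhl1, Ifh1 and Sfp1 and the TOR and Sch9 kinases. Most copy pairs arose in an ancient duplication of the whole genome, and several members lower their own RNA through splicing or decay when the protein is in excess. RPL40A, RPL40B and RPS31 encode ribosomal proteins fused to ubiquitin, the small protein that the K123R strain can no longer attach to histone H2B.

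RNA of a mutant and of a reference strain was hybridised together, in opposite dyes, on 9 Agilent arrays. The K123R strain (CY1272) carries Htb1_K123R, an H2B in which the ubiquitin-accepting lysine is replaced by arginine, and htb2_delta0, a deletion of the other H2B gene. It was compared on 2 arrays with BY4742, the wild type, and on 3 arrays with BY13026, which carries htb2_delta0 alone. The ubp8 strain (BY10809, ubp8_delta0), which lacks the ubiquitin protease of the SAGA complex, and the double mutant (CY1383), which carries Htb1_K123R, htb2_delta0 and ubp8_delta0, were each compared with BY4742 on 2 arrays. Array 1 against wild type held the mutant in Cy5 and array 2 in Cy3, while K123R was in Cy5 only on array 2 of the 3 against the htb2 deletion strain. The arrays against wild type and those against the htb2 deletion strain were deposited under different array platforms. The arrays are called biological replicates by the design text, which does not say whether wild-type RNA was shared between them. The main fit of the 3 comparisons with wild type has no term for shared RNA and treats the arrays as independent. What these comparisons share in it is the estimate of the spread.

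The genotype showed in the targeted genes. HTB2 read log2 ratios of -3.68 and -3.88 in K123R and -3.16 and -3.64 in the double mutant, and UBP8 read -2.54 and -2.08 in ubp8 and -2.32 and -2.40 in the double mutant. HIS3, a marker deleted in BY4742, had fitted log2 ratios of 3.17 in K123R and 2.86 in the double mutant against wild type, and of 3.64 in K123R with the htb2 deletion strain as reference. LEU2 was higher, at 3.70, in K123R against wild type, and read -0.21 in K123R against the htb2 deletion strain. Whether the K123R RNA of both sets of arrays came from one isolate was not tested. Any part of these markers in the results below cannot be told apart from that of the histone.

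All values below are log2 ratios of mutant over reference strain, after each array was centred by loess over its own spots. A ratio is therefore relative to genes of like brightness on the array, and the members themselves were part of the loess curve. Fewer cells, less RNA per cell or a change of the whole RNA pool cannot be told apart. Errors are standard errors from limma, a linear model fitted across all genes, and a gene passed the test when its p-value, adjusted by the Benjamini-Hochberg method over all genes tested, was under 0.05. The number of arrays limits the precision. Ratios of different probes compare changes, not levels.

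These messages were so abundant that many of their spots reached the ceiling of the scanner. Between 49.8% and 60.7% of the members' 219 spots were saturated in at least 1 colour on each array, against 0.667% to 1.31% of the other genes' spots. The members made up 48.4% to 61.9% of all saturated gene spots. Cy5 saturated more often than Cy3, with 107 to 133 member spots in Cy5 and 17 to 96 in Cy3. Over all 9 arrays 49 members were never saturated (33 of the 60S and 16 of the 40S subunit), and 68 were saturated in at least 1 colour on every array. All 137 were well above background in at least 1 colour on every array.

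A probe at the ceiling in both colours carries the same ratio as every other such probe. On array 1 of K123R against wild type, 39 of the 40 members saturated in both colours on both arrays lay within 0.05 of their median of -0.31, and on array 2, with the dyes turned, 39 of 40 lay within 0.05 of 0.25. The corresponding medians were -0.27 and 0.18 for 43 members in ubp8, and -0.03 and 0.18 for 52 members in the double mutant. On the arrays with the htb2 deletion strain 8 members were in this state, with medians of 0.93, -0.78 and 0.48 on the 3 arrays. RPL10, RPL15A and RPS31 were among those at the ceiling on the arrays against wild type. For such members no fold change is given. A member saturated on the brighter side alone has a ratio that is only a bound.

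**Figure D1:**
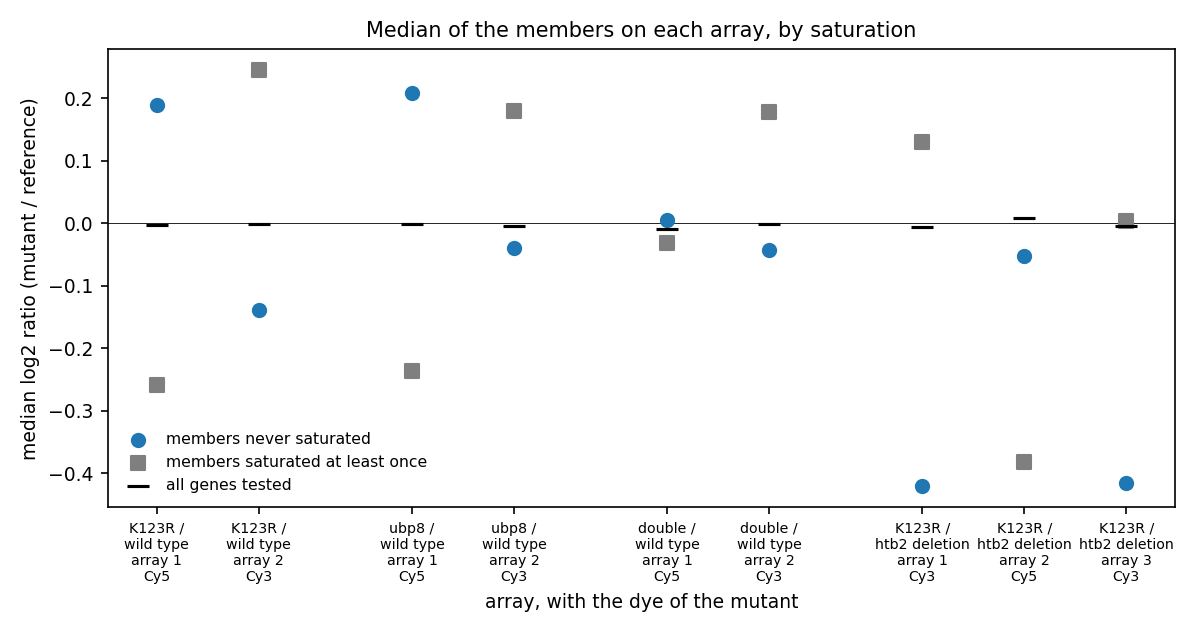
Median log2 ratio (mutant over reference, vertical axis) on each of the 9 arrays (horizontal axis, with the dye that held the mutant) for members never saturated in that comparison (circles), members saturated at least once (squares) and all genes tested (bars). In K123R against wild type the saturated members read -0.26 and 0.25 and the never saturated ones 0.19 and -0.14, so both groups change sign with the dye, while the median of all genes stays within 0.01 of 0.

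Read by array, the members’ medians changed with the dye that held the mutant. Members never saturated had medians of 0.19 and -0.14 on the 2 arrays of K123R, 0.21 and -0.04 on those of ubp8, and 0.01 and -0.04 on those of the double mutant. Members saturated at least once had -0.26 and 0.25, -0.24 and 0.18, and -0.03 and 0.18. Both sets thus crossed 0 between the arrays of K123R and of ubp8. The median standard error of a fitted ratio was 0.14 over the members and 0.07 over all genes in the fit against wild type. In the fit against the htb2 deletion strain, which has a dye term for each gene, it was 0.09 for both.

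K123R against wild type asks what the ribosomal protein genes do when H2B cannot be ubiquitylated and HTB2 is missing. One member, RPL18B (YNL301C), which encodes a 60S protein, rose, and no member fell. It read 0.29 and 0.20 on the 2 arrays, a fitted 0.25 ± 0.06 (adjusted p = 0.0484 by limma), or 1.19-fold. Both arrays were above 0, and the probe was never saturated. Of the 137 members, 1 passed as higher, against 10.9% of all 6247 genes tested, and 0 passed as lower, against 10.1%. At an unadjusted p under 0.05 there were 3 members, all higher, against 36.6% of all genes. All 3 were among the 53 members never saturated. The call of RPL18B was narrow: it did not pass on the scanner’s processed signals (adjusted p = 0.0567), after median centring (0.0636), in a fit of its own 2 arrays (0.104), or when any one of the 6 arrays was left out (0.0711 to 0.333), while its ratio stayed between 0.20 and 0.29.

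The median fitted ratio of all members was -0.02, beside -0.003 over all genes, with -0.03 for 60S and -0.02 for 40S members. This median says little, since 40 of the 137 members were at the ceiling with a fitted ratio of about -0.03. On the 2 arrays the members’ medians were -0.02 and 0.10, and with 1 array left out the fitted median ranged from -0.022 to 0.103. The lower and upper quartiles of the members were -0.03 and 0.06. Among the 53 members never saturated in this comparison the fitted ratios ran from -0.20 to 0.25. For the 84 saturated at least once the sizes of the ratios are not exact. The lowest fitted values of all members were RPL41A at -0.25 ± 0.16, RPL41B at -0.23 ± 0.15 and RPL27B at -0.20 ± 0.24. After RPL18B, the highest were RPL15B at 0.22 ± 0.06 (adjusted p = 0.0612 by limma) and RPP1B at 0.19 ± 0.10. None of these 5 genes passed. RPL41A and RPL41B, which encode the same very short peptide, were saturated on some of the arrays. Of the members, 18 were higher on both arrays, or 13.1% against 34.3% of all genes, and 12 were lower on both, or 8.76% against 34.7%. Members at the ceiling changed sign with the dye and could not count here. Of the 53 members never saturated, 8 were higher and 5 lower on both arrays, and of the 84 others 10 and 7.

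The array number stands for the dye, and samples of the same number deviated together, so the fit was also made with that number as a block. Then 15 members passed as higher and 6 as lower, against 33.4% and 32.8% of all genes. The members higher were 11 of 81 of the 60S and 4 of 56 of the 40S subunit, and those lower were 5 and 1. RPL18B remained at 0.25 ± 0.04 (adjusted p = 0.00388 by limma with the block), and RPL15B (0.22 ± 0.03, adjusted p = 0.0012) and the stalk gene RPP1B (0.19 ± 0.04, adjusted p = 0.01) passed. RPL27B was the lowest at -0.20 ± 0.07 (adjusted p = 0.0456). Over both directions this made 21 of 137 members, beside 66.2% of all genes. The largest of the 21 ratios was that of RPL18B, and the fitted ratios of all members ran from -0.25 to 0.25.

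Loss of UBP8, which leaves ubiquitin on H2B, moved no member past the test. The count was 0 of 137 by limma, against 2.83% of all genes (1.86% higher and 0.977% lower). At an unadjusted p under 0.05 there were 7 members higher, against 12.1% of all genes, and 2 lower, against 9.62%. All 9 were among the 53 members never saturated, so these counts are to be read against those 53. On both arrays 22 members were higher, or 16.1% against 28.4%, and 10 were lower, or 7.30% against 29.8%. Members at the ceiling changed sign with the dye and could not count here. Of the 53 members never saturated, 19 were higher and 8 lower on both arrays, and of the 84 others 3 and 2. RPL7B (YPL198W), a 60S protein gene, read -0.19 and -0.27, a fitted -0.23 ± 0.05 (adjusted p = 0.0941). RPL15B read -0.18 and -0.27, a fitted -0.22 ± 0.06 (adjusted p = 0.126). Both genes were thus below 0 on both arrays, while their other copies read -0.08 ± 0.10 for RPL7A and were at the ceiling for RPL15A.

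The highest fitted values in ubp8 were those of RPP1B, at 0.32 ± 0.10, and of RPS30B and RPS30A, at 0.28 ± 0.14 and 0.25 ± 0.11. RPP1B, one of the acidic proteins of the stalk that recruits elongation factors to the 60S subunit, read 0.42 and 0.22 on the 2 arrays. RPS30A read 0.39 and 0.11 and RPS30B read 0.47 and 0.08, so every array was above 0 for the 3 genes. None passed (adjusted p = 0.144, 0.28 and 0.343 for RPP1B, RPS30A and RPS30B). The median over all members was -0.02, beside -0.01 over all genes. Among the 53 never saturated in this comparison 40 were above 0, with a median of 0.07.

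With the array number as a block, 14 members passed as higher and 2 as lower in ubp8, against 24.9% and 24.6% of all genes (49.5% in either direction), and all 16 were never saturated. RPP1B, RPP1A and RPP2A, 3 of the 5 stalk genes, were among those higher, at 0.32 ± 0.04, 0.19 ± 0.03 and 0.16 ± 0.04 (adjusted p = 0.00249, 0.00628 and 0.0221 by limma with the block). The remaining stalk genes, RPP0 and RPP2B, were saturated in ubp8 on both arrays. RPS30A and RPS30B also passed, with adjusted p of 0.00608 and 0.00451. The members lower were RPL7B (adjusted p = 0.00171) and RPL15B (adjusted p = 0.0025).

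**Figure D2:**
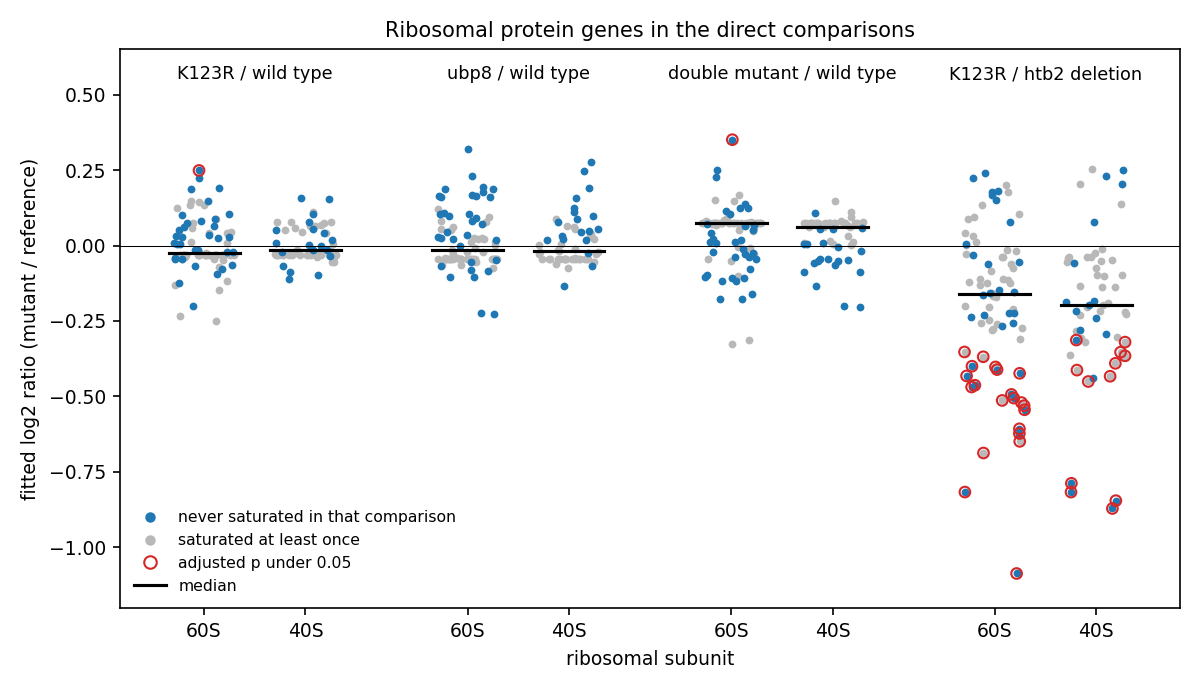
Fitted log2 ratio of each member (vertical axis) in the 4 direct comparisons, split into 60S and 40S subunit (horizontal axis). Blue points were never saturated in that comparison, grey points were saturated at least once, red rings passed the test and black bars are medians; rows of grey points at one height are probes at the ceiling. In the comparisons with wild type the members stay between -0.33 and 0.35, and against the htb2 deletion strain they reach -1.09, with 33 ringed points, all below 0.

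In the double mutant RPL18B rose again and no other member passed. RPL18B read 0.30 and 0.40, a fitted 0.35 ± 0.06 (adjusted p = 0.0202 by limma), or 1.28-fold. The count of 1 member higher stood against 9.78% of all genes and that of 0 lower against 10.2%. At an unadjusted p under 0.05 there were 4 members, all higher, against 35.8% of all genes. Of these 4, 3 were among the 56 members never saturated and 1 among the 81 others. Without either of the double mutant’s own arrays RPL18B did not pass (adjusted p = 0.12 and 0.179), while its ratio was 0.40 and 0.30. On both arrays 19 members were higher, or 13.9% against 32.9% of all genes, and 20 were lower, or 14.6% against 34.8%. Most of the 52 members at the ceiling changed sign between the arrays and could not count here. Of the 56 members never saturated, 11 were higher and 15 lower on both arrays, and of the 81 others 8 and 5. RPP1B (0.25 ± 0.10) and RPL15B (0.23 ± 0.06, adjusted p = 0.0601) followed RPL18B, and RPL41A (-0.33 ± 0.16), RPL41B (-0.31 ± 0.15) and RPS7A (-0.20 ± 0.15) were the lowest.

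The median of all members was 0.07 in the double mutant, beside 0.001 over all genes, and 0.20 after median centring. This median says little, since 52 members were at the ceiling, most with a fitted ratio of about 0.07. The 81 members saturated at least once had a median of 0.07, with 73 above 0, and the 56 never saturated had -0.02, with 25 above 0. The 73 include members at the ceiling, which carry the same ratio. After median centring the 81 had a median of 0.21 and the 56 had 0.05. With the array number as a block 12 members passed as higher and 3 as lower, against 32.1% and 33.3% of all genes (65.5% in either direction). RPL18B, RPP1B and RPL15B were again the highest 3. RPP1B was the one member to pass in the same direction in all 3 comparisons with wild type under the block.

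RPL15B and RPL18B differed between mutants. RPL15B was higher in K123R than in ubp8 by 0.45 ± 0.09 (adjusted p = 0.0462 by limma) and higher in the double mutant than in ubp8 by 0.45 ± 0.09 (adjusted p = 0.0492). RPL18B was higher in the double mutant than in ubp8 by 0.45 ± 0.09 (adjusted p = 0.0494), and in K123R than in ubp8 by 0.35 ± 0.09 (adjusted p = 0.074), which did not pass. RPL7B was near these, with 0.35 ± 0.08 for the double mutant against ubp8 (adjusted p = 0.0594) and 0.33 ± 0.08 for K123R against ubp8 (adjusted p = 0.0631). These contrasts run through wild type. The 2 members called between the double mutant and ubp8 stood against 6.87% of all genes, and the 1 called between K123R and ubp8 against 8.49%. Both counts were 0 on the scanner’s processed signals, after median centring, and whenever 1 of the 6 arrays was left out, when the counts over all genes were also down to between 3 and 52.

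Between the double mutant and K123R no gene passed by limma. That fit could not call even UBP8, which differed by -2.16 ± 0.17 (adjusted p = 0.0918), so it says nothing about the members. At an unadjusted p under 0.05 there were 0 members, against 0.705% of all genes. With the array number as a block UBP8 passed (adjusted p = 0.00468), as did 14 genes in all or 0.224%, with 0 members among them. LEU2 passed too, at -3.75 ± 0.23 (adjusted p = 0.00718 by limma with the block), so UBP8 was not the one marked difference between these strains. With that block, 13 members passed in each of the contrasts against ubp8, against 54.7% and 56.5% of all genes. They included RPL15B, RPL18B and RPL7B as higher, and RPP1A, RPS30A, RPS30B, RPS9A, RPS14A and RPL31B as lower, in both K123R and the double mutant than in ubp8. RPL7B, for example, then read 0.33 ± 0.04 for K123R minus ubp8 (adjusted p = 0.00112).

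**Figure D3:**
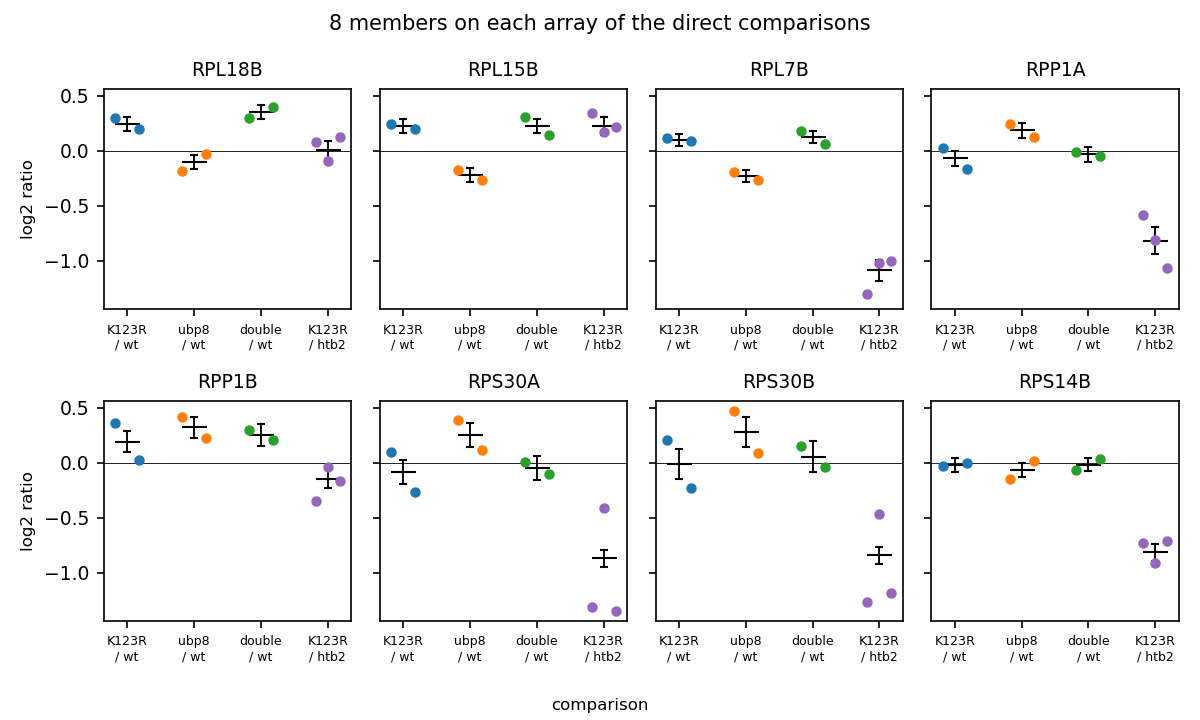
Log2 ratios on each array (points) with the fitted value and its standard error (bars) for 8 members in the 4 direct comparisons (horizontal axis). RPL15B and RPL7B lie below 0 on both ubp8 arrays and above 0 on the K123R and double mutant arrays against wild type, and RPL7B, RPP1A, RPS14B, RPS30A and RPS30B lie well below 0 against the htb2 deletion strain.

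K123R against the htb2 deletion strain holds the loss of HTB2 constant and leaves the lysine as the difference in H2B that the labels name. The H2B genes nevertheless read lower in K123R here. HTB1, the H2B gene that both strains keep, read -1.17, -0.34 and -1.31, a fitted -0.79 ± 0.08 (adjusted p = 0.0142 by limma), with the htb2 deletion strain saturated on 1 array. HTB2, which both lack by their labels, read -0.97, -0.06 and -0.71, a fitted -0.45 ± 0.09 (adjusted p = 0.0306). Their part in the members’ ratios was not tested.

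In this comparison 33 of 136 members fell and none rose. That is 24.3% of the members, against 14.3% of all 5861 genes tested that were called lower and 13.6% that were called higher (28.0% in either direction). RPL11A had no value on any of the 3 arrays and was not tested. The members that fell were 21 of 80 of the 60S and 12 of 56 of the 40S subunit. There were 14 copy A genes, 16 copy B genes and 3 single-copy genes among them. Their fitted ratios ran from -1.09 to -0.31 with a median of -0.47.

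The median of all 136 members was -0.19, beside -0.01 over all genes, and 111 of the 136 lay below 0. It was -0.16 for the 60S and -0.20 for the 40S subunit, and -0.20 for copies A and -0.17 for copies B. On the 3 arrays the members' medians were -0.13, -0.21 and -0.16. Saturation and dye moved these values. The 52 members never saturated in this comparison read -0.42, -0.05 and -0.42 on arrays 1 to 3, while the 84 saturated at least once read 0.13, -0.38 and 0.004. Array 2 is the one with K123R in Cy5. The fitted value is the midpoint between array 2 and the mean of the other arrays, since each gene has its own dye term.

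The 33 calls were divided between the kinds of probe. Of the 52 members never saturated 18 fell, and of the 84 saturated members 15 fell. Lower values on all 3 arrays were found for 26 of the 33 members. In 1 of the others, RPS27A, a value was missing on array 3, and in 6 (RPL23B, RPL35B, RPL43B, RPS7A, RPS22B and RPS29A) array 2 lay slightly above 0. Over all members with 3 values, 45 of 130 were lower on every array, or 34.6% against 32.7% of all genes, and 10 were higher on every array, or 7.69% against 32.3%. Among the never saturated members 24 of 48 were lower on every array and 5 were higher.

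The count depended on the arrays and on the normalization. Without array 1 it was 7 members and without array 3 it was 13, all lower, while without array 2 the remaining arrays hold 1 dye orientation and 43 members passed as lower and 20 as higher. When the loess curve was fitted without the ribosomal protein genes 55 passed, all lower, and when saturated spots were left out 19 of 62 members with a value passed, all lower. All 33 ratios stayed below 0 under each of these settings where they had a value. The shares of all genes called under these settings are not given here, so these counts have no background to be read against.

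RPL7B showed the lowest ratio of the group, with -1.30, -1.02 and -1.005 on the 3 arrays and a fitted -1.09 ± 0.10 (adjusted p = 0.0117 by limma), or 2.12-fold lower. All 3 arrays lay near or below -1 whatever the dye. Its signal was never saturated, at 491, 1672 and 626 units in K123R and 2948, 1479 and 2010 in the htb2 deletion strain before normalization. RPL7A, its copy, read -0.20, -0.23 and -0.27 and did not pass (adjusted p = 0.0864).

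RPS30A and RPS30B, which encode the same small 40S protein, fell together. RPS30A read -1.31, -0.41 and -1.35, a fitted -0.87 ± 0.08 (adjusted p = 0.0119), and RPS30B read -1.26, -0.47 and -1.18, a fitted -0.85 ± 0.08 (adjusted p = 0.0123). For both, array 2 was less low than the others. The probes of such copies may read each other's RNA, since no probe sequence was used here, so the 2 genes are not independent measurements.

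RPS14B, a 40S protein gene whose RNA is kept low by its own protein product, read -0.73, -0.91 and -0.71, a fitted -0.82 ± 0.08 (adjusted p = 0.0123). All 3 arrays were alike. RPS14A was read on 2 arrays at -0.11 and -0.45 and did not pass (adjusted p = 0.137). RPS27A, a zinc-binding 40S protein gene, was also read on 2 arrays, at -0.77 and -0.80 (fitted by the mean alone, -0.79 ± 0.09, adjusted p = 0.0146).

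Among the 60S genes, RPL22B read -0.73, -0.53 and -0.70, a fitted -0.62 ± 0.08 (adjusted p = 0.0159). RPL22B carries an intron through which the Rpl22 protein lowers its RNA. RPL27B read -0.78, -0.41 and -0.83, a fitted -0.61 ± 0.08 (adjusted p = 0.0165). Each of these 2 genes was below 0 on all 3 arrays and never saturated. Their A copies, RPL22A (-0.25 ± 0.08) and RPL27A, did not pass, and RPL27A was saturated on the side of the htb2 deletion strain on every array.

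RPL41A and RPL41B also fell. RPL41A read -0.37, -0.68 and -1.01, a fitted -0.69 ± 0.15 (adjusted p = 0.0316), and was saturated on some arrays. RPL41B was saturated in the htb2 deletion strain on every array, so its ratio is a bound: its signal there was at least 1.56-fold higher than in K123R (adjusted p = 0.0385).

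**Figure D4:**
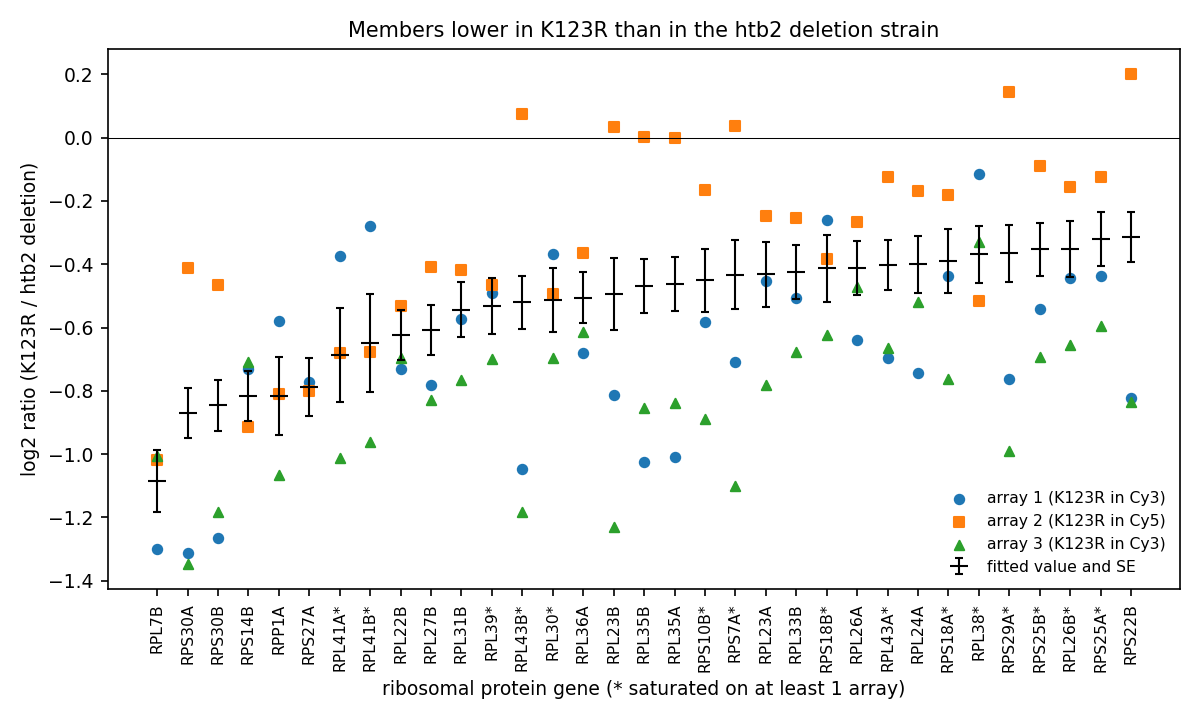
Log2 ratios of the 33 members that fell in K123R against the htb2 deletion strain (horizontal axis, ordered by fitted value), on each of the 3 arrays (points) with the fitted value and its standard error (black bars). Array 2, with K123R in Cy5, lies above the other arrays for most members beyond RPS27A in this order and above 0 for 6 of them, while RPL7B, RPS14B and RPL22B are low on all 3 arrays.

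Genes for proteins at the exit of the tunnel through which the new protein leaves the 60S subunit were split. RPL31B (-0.54 ± 0.09), RPL39 (-0.53 ± 0.09), RPL35A (-0.46 ± 0.09), RPL35B (-0.47 ± 0.09), RPL26A (-0.41 ± 0.09) and RPL26B (-0.35 ± 0.09) fell. RPL17A (0.09 ± 0.09), RPL17B (0.17 ± 0.10), RPL19A (0.08 ± 0.11), RPL19B (-0.06 ± 0.10), RPL25 (-0.20 ± 0.11) and RPL31A (-0.06 ± 0.08), which also encode proteins at that exit, did not pass. These genes were gathered after their values were seen, so the grouping has no test. RPL31A and RPL31B were never saturated there. For the others saturation is not given here, and 15 of the 33 calls were of saturated members, whose sizes are not exact. Of the single-copy genes RPL30 (-0.51 ± 0.10), whose protein blocks the splicing of its own RNA, RPL38 (-0.37 ± 0.09) and RPL39 passed. RPL35A and RPL35B had array 2 values of -0.002 and 0.002, so their calls rest on the arrays with K123R in Cy3.

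Stalk genes did not move as one. RPP1A (YDL081C) read -0.58, -0.81 and -1.06, a fitted -0.82 ± 0.12 (adjusted p = 0.0191). RPP1B (-0.15 ± 0.09), RPP2A (-0.17 ± 0.08), RPP2B (-0.17 ± 0.09) and RPP0 (0.13 ± 0.09) did not pass. RPP1B was below 0 on all 3 arrays, at -0.35, -0.04 and -0.17, and above 0 on both arrays of K123R against wild type, at 0.36 and 0.02.

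The ubiquitin fusion genes did not pass in any of the 4 direct comparisons. In K123R against wild type RPL40A was saturated in K123R on both arrays, so the size of its ratio there is not exact. RPL40A, against the htb2 deletion strain, read -0.09, -0.42 and -0.10, a fitted -0.26 ± 0.08 (adjusted p = 0.0684). On the scanner’s processed signals it was -0.41 ± 0.11 and passed (adjusted p = 0.0232). RPL40B and RPS31 were saturated in the htb2 deletion strain on all 3 arrays and at the ceiling in both colours on the arrays against wild type, so no change in them could be read there.

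Among the highest fitted ratios against the htb2 deletion strain were those of RPS0B (0.25 ± 0.08) and RPL13A (0.24 ± 0.09), and neither passed (adjusted p = 0.0699 and 0.0933). At an unadjusted p under 0.05, 53 members were lower, against 22.3% of all genes, and 5 higher, against 22.7%. Both K123R comparisons name the same mutant strain, with different references, although LEU2 was high in K123R on one set of arrays alone. RPL7B was at 0.10 ± 0.05 against wild type and at -1.09 ± 0.10 against the htb2 deletion strain, and RPS14B and RPS30A, similarly low in the second, were within 0.1 of 0 in the first.

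The 2 genes of a pair could differ. Against the htb2 deletion strain both copies fell in 8 pairs, 1 copy fell in 14 pairs, and the fitted ratios of the 2 copies lay more than 0.2 apart in 17 pairs. The difference of copy A minus copy B kept its sign on all 3 arrays in 18 of 52 pairs with complete values, 8 with A above B and 10 with B above A. The largest such difference was in RPL7, with 1.101, 0.79 and 0.73 on the 3 arrays (0.85 between fitted ratios). It was followed by RPP1 with -0.23, -0.77 and -0.89 (-0.67), RPS7 with -0.23, -0.41 and -0.996 (-0.51), RPL31 with 0.61, 0.31 and 0.72 (0.49) and RPL36 with -0.59, -0.34 and -0.62 (-0.48). These are descriptions, and no difference between copies was tested. All 10 of these genes except RPS7A were never saturated there. In the 8 pairs in which both copies fell, the copies read alike: RPL23, RPL26, RPL35, RPL41, RPL43, RPS18, RPS25 and RPS30.

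Copies differed less in the comparisons with wild type. The median absolute difference between copies was 0.03 in K123R, 0.03 in ubp8 and 0.07 in the double mutant, beside 0.12 against the htb2 deletion strain, and values at the ceiling are equal by construction. In K123R the largest difference with 1 sign on both arrays was in RPL31, at 0.46 and 0.07, followed by RPP1, at -0.33 and -0.18. In ubp8 RPL26 (0.54 and 0.01) and RPL18 (0.45 and 0.09) led, and RPS9 read 0.27 and 0.14. RPL26B was at the ceiling there. In the double mutant RPL18 read -0.23 and -0.34 and RPP1 read -0.31 and -0.25. RPP1B lay above RPP1A on all 9 arrays of the 4 comparisons.

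**Figure D5:**
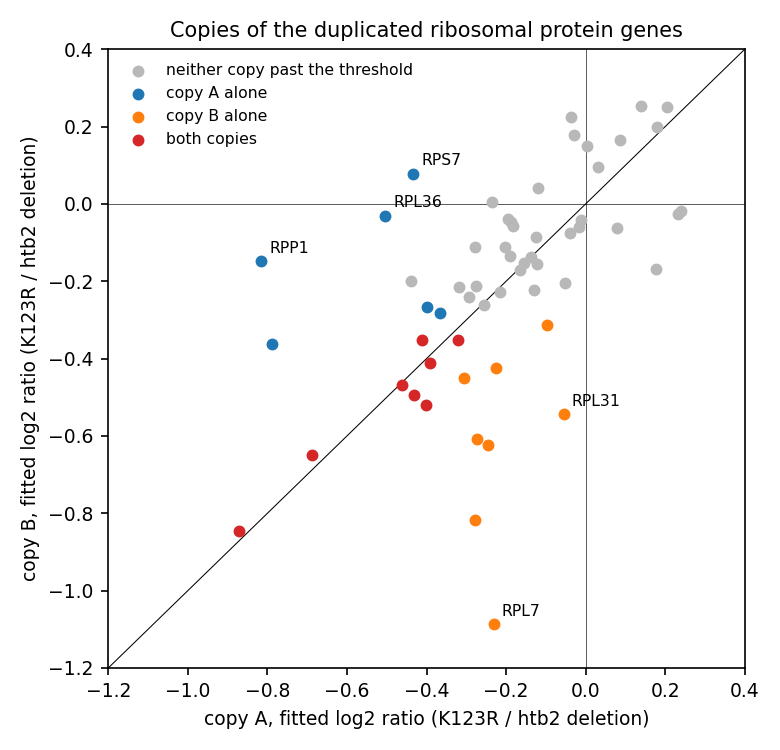
Fitted log2 ratio of copy B (vertical axis) against that of copy A (horizontal axis) in K123R against the htb2 deletion strain, 1 point per pair; the diagonal marks equal ratios. Both copies passed in 8 pairs, which lie near the diagonal, and RPL7, RPP1, RPS7, RPL31 and RPL36 are the labelled pairs with the largest differences of 1 sign on every array.

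Genes that control or serve the ribosomal proteins were read from lists of known roles. Of 22 regulators, 2 rose and 4 fell in K123R against wild type, or 6 of 22, beside 21.1% of all genes in either direction. IFH1, the activator that binds these promoters through Fhl1, rose by 0.52 ± 0.06 (0.46 and 0.58 on the arrays, adjusted p = 0.00582), and KOG1, a TOR complex subunit, rose by 0.22 ± 0.05 (adjusted p = 0.0357). RAP1 (-0.30 ± 0.08, adjusted p = 0.0492), the co-repressor CRF1 (-0.31 ± 0.07, adjusted p = 0.0302) and the general factors ABF1 (-0.41 ± 0.05, adjusted p = 0.00844) and REB1 (-0.22 ± 0.05, adjusted p = 0.0318) fell. In the double mutant IFH1 rose by 0.55 ± 0.06, and CRF1, ABF1 and REB1 fell. That is 1 higher and 3 lower of 22, beside 9.78% and 10.2% of all genes. In ubp8 none of the 22 passed, beside 2.83% of all genes in either direction. Against the htb2 deletion strain, of 20 tested, SCH9 (0.46 ± 0.09), KOG1 (0.47 ± 0.09) and the casein kinase subunit CKA2 (0.32 ± 0.08) rose, and CRF1 fell (-0.36 ± 0.09). That is 3 higher and 1 lower of 20, beside 13.6% and 14.3% of all genes.

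Of 19 chaperones dedicated to ribosomal proteins or bound to new chains, 5 rose and 1 fell in K123R against wild type, beside 10.9% and 10.1% of all genes, and 5 rose in the double mutant, beside 9.78%. PUF6, LTV1, SQT1 and SSZ1 rose in both, by 0.49 ± 0.08, 0.52 ± 0.07, 0.30 ± 0.06 and 0.48 ± 0.06 in K123R. RRB1, the Rpl3 chaperone, passed in K123R alone (0.23 ± 0.06), YAR1, the Rps3 chaperone, in the double mutant alone (0.27 ± 0.06), and BTT1 fell in K123R (-0.24 ± 0.05). For these 3 genes no difference between the mutants is shown. In ubp8 none passed, beside 2.83% of all genes in either direction. In K123R against the htb2 deletion strain 6 of 15 rose, beside 13.6% of all genes, among them PUF6 (0.54 ± 0.13), LTV1 (0.55 ± 0.09), SSZ1 (0.62 ± 0.09) and the Rpl5 importer SYO1 (0.63 ± 0.16), and none fell. The median ratio of this list was 0.21 in K123R, 0.17 in ubp8, 0.20 in the double mutant and 0.28 against the htb2 deletion strain, where the median of the ribosomal protein genes was -0.19.

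Elongation factors and ribosome-bound proteins, 14 genes, had no member past the test in the comparisons with wild type, in which 21.1%, 2.83% and 20.0% of all genes passed in K123R, ubp8 and the double mutant. EFT2, TEF1, TEF2, YEF3 and ASC1 were at the ceiling in both colours on all 6 of those arrays, so no change in them could be read. Of the 14, 2 passed as higher and 1 as lower against the htb2 deletion strain, beside 13.6% and 14.3% of all genes. There EFT1, which encodes elongation factor 2, rose by 0.38 ± 0.08, NEW1, never saturated, rose by 0.44 ± 0.12, and TMA19 passed as lower at -0.46 ± 0.12. EFT1 was saturated in both strains on 2 of the 3 arrays, and TMA19 in K123R on 1 and in the htb2 deletion strain on 2, so the sizes of these 2 ratios are not exact.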

How the data were processed

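Spot intensities were read with Agilent Feature Extraction A.7.5.1 (arrays against wild type) and 8.5.1.1 (arrays against the htb2 deletion strain), per the file headers. The deposited log10 ratios are of mutant over reference and equal ratios of the scanner's dye-normalised signals to within 5.0e-10. Mean signals were corrected here by normexp (offset 50) and loess in limma 3.58.1 under R 4.3.3. Control and outlier spots were left out, saturated spots were kept, and spots of a gene were averaged as log2 ratios. Outliers were 0.760% to 3.62% of gene spots on the arrays against wild type. They were 18.8% to 19.0% on those against the htb2 deletion strain. Genes well above background in 1 colour on at least 3 of 6 or 2 of 3 arrays were tested. The 6 arrays against wild type had 1 fit with a mean per mutant (3 residual degrees of freedom). The 3 others had a mean and a dye term (1 residual degree of freedom), or the mean alone for 547 genes with a missing array. Signal was 26.2 to 65 times the background in the median. The deviations of equally numbered arrays correlated at 0.865 to 0.886 across genes, so the number pairs the arrays. It stands for the dye orientation. Pairs of arrays also shared slides, which were tried as a block.

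The members and the lists were chosen with earlier results of these data known. Genes are named if they passed (up to the 10 highest and 10 lowest), were among the 3 highest or lowest, encode ubiquitin fusions or stalk proteins, or belong to the 5 copy pairs with the largest difference of 1 sign. Others were chosen after their values were seen. Some members that this rule names are not reported here.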

Additional observations from a re-analysis of the deposited data

Results flagged for a closer look

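RPL7B and RPP1B read on opposite sides of 0 in K123R against its 2 references. RPL7B was above 0 on both arrays against wild type (fitted 0.10) and below 0 on all 3 arrays against the htb2 deletion strain (fitted -1.09). RPL7B passed the test in the second comparison, and RPP1B in neither. RPP1B was above 0 on both arrays against wild type (fitted 0.19) and below 0 on all 3 against the htb2 deletion strain (fitted -0.15). The difference was not tested for either gene. The reference strain, the array platform and the version of the scanner software all changed between the 2 sets of arrays. LEU2 read 3.70 in K123R on the first set and -0.21 on the second, and whether both sets used one K123R isolate was not tested.

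RPL15B and RPL18B differed between mutants by a test of the difference in limma. RPL15B was 0.449 higher in the double mutant than in ubp8 and 0.446 higher in K123R than in ubp8, and RPL18B was 0.455 higher in the double mutant than in ubp8 (log2 scale).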

How the results depend on the processing

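Calls for the 137 members in the comparisons with wild type were few and moved with the error model. For the settings below other than the replicate block, shares of all genes are not given, so the counts describe the members alone. In K123R against wild type 0 passed on the scanner’s processed signals, the deposited values, after median centring and with only the 2 arrays of the comparison, 2 with the slide as a block, and 0 with any 1 array left out. In ubp8 1 passed with the slide as a block. In the double mutant 3 passed with the slide as a block and 3 with only its 2 arrays, and 0 to 1 with 1 array left out. For the contrasts with ubp8, 0 members passed in each on processed signals, deposited values, after median centring and with any array left out, and 3 for K123R minus ubp8 with the slide as a block.

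The replicate block, which is the array number and thus the dye, moved the counts the most: 21 members in K123R, 16 in ubp8, 15 in the double mutant, and 13 in each contrast with ubp8. It takes up the dye difference of each gene and leaves the fitted ratio of a gene read on all 6 arrays unchanged.

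With the htb2 deletion strain as reference 51 members passed on processed signals or deposited values, 55 with the loess curve fitted without the members, 19 with saturated spots left out, and 7 to 63 with 1 array left out.

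Medians moved too, in K123R across 0. The median in K123R against wild type was 0.078 with the slide as a block and -0.022 to 0.103 with 1 array left out. It was 0.20 in the double mutant after median centring, with 0.21 for members saturated at least once and 0.05 for those never saturated. With the loess curve fitted without the members the median was -0.03 in K123R, -0.02 in ubp8 and 0.10 in the double mutant. For the htb2 deletion strain it was -0.29 on processed signals or deposited values, -0.31 with the loess curve fitted without the members, -0.14 with the slide as a block, -0.12 with no dye term, and -0.21 to -0.13 with 1 array left out. The median of 60S minus that of 40S members stayed near 0. In ubp8 it was 0.0206 with saturated spots left out, 0.0324 with the slide as a block and 0.0029 to 0.0282 with 1 array left out. In the double mutant it was 0.00602 on processed signals or deposited values, -0.000735 after median centring, 0.0552 with saturated spots left out and -0.00335 to 0.0113 with 1 array left out. For the htb2 deletion strain it was -0.0318 with the slide as a block and -0.0468 with no dye term. The cause of these shifts was not tested. RPL18B against wild type and the 33 members called against the htb2 deletion strain kept their sign wherever they had a value. Saturated probes limit what can be read of the most abundant members.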
